A study of Caenorhabditis elegans with 12 samples.

Results

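The transition from the L3 to the L4 larval stage was followed in unexposed wild-type (WT, N2 Bristol) *Caenorhabditis elegans* by comparing every library titled L4 without cadmium (Cd) with every library titled L3 without Cd. These were 6 of the 12 libraries of the series, 3 biological replicates of each stage. Worms were synchronized at L1 and cultured at 20 °C on NGM plates with *E. coli* OP50, without added Cd, for 27 h (L3) or 47 h (L4), and poly-A RNA of whole worms was sequenced. All groups carry the WT genotype, and each library is RNA of a population on plates, not of single staged animals. The other 6 libraries, of the same stages grown with 20 µM Cd, were used only where stated.

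Between L3 and L4 a *C. elegans* hermaphrodite passes a moult, in which the epidermis builds a new collagenous cuticle and sheds the old one, and its gonad grows from dividing germ cells into an organ that makes gametes. Hermaphrodite germ cells first enter meiosis as sperm and then switch to oocytes, which are wrapped in an eggshell and fed with yolk made by the intestine. In the same period the vulva forms from epidermal precursor cells, and the heterochronic genes, a set of timing regulators, move the epidermis from larval to adult programmes.

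The counts on named genes summed to between 23899991 and 33925979 at L3 and between 36412510 and 44049826 at L4, and between 20035 and 21227 genes had a count in a library. The first principal component separated the stages and held 95.4% of the variance. An entry without a gene name held 2.01% of the counts of L3 replicate 1 and at most 0.0737% of those of the other libraries, and was left out. Levels are given as CPM, that is counts rescaled for library size with TMM factors, which take most genes as unchanged. A gene was called up- or down-regulated when edgeR's quasi-likelihood test gave p of 0.05 or less after Benjamini-Hochberg adjustment over all genes tested and the fold change was at least 2, that is 1 on the log2 scale. Log2 fold changes are L4 minus L3 throughout, and means are given ± SD of 3 libraries.

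Most genes tested changed between the stages: 9305 of 16487 genes tested were called (56.4%), 4701 up-regulated (28.5%) and 4604 down-regulated at L4 (27.9%). For 13831 genes (83.9%) the 3 libraries of one stage all lay on the same side of the 3 of the other. The up-regulated genes moved further. Their median log2 change was 2.49 in size against 1.80 for the down-regulated ones, and 2107 of them (44.8%) changed by at least 8-fold against 592 (12.9%). A set of 64 genes went from 0 counts in all L3 libraries to at least 10 CPM in every L4 library, whereas 0 genes went from at least 10 CPM in every L3 library to 0 counts at L4. When each library was left out in turn, 4406 of the up-regulated (93.7%) and 3944 of the down-regulated genes (85.7%) were called in all 6 fits. The median log2 fold change of all genes was −0.07 and moved to 0.07 with the size factors of DESeq2 and to −0.20 with library totals, so changes smaller than this are not given a direction. With 56.4% of the genes tested called, the TMM premise that most genes are unchanged was not met. CPM are shares of a library, so a rise of some genes lowers the share of others. Since whole worms were sequenced, fewer cells of a type, less RNA per cell and a smaller share of a larger RNA pool cannot be told apart.

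**Figure D1:**
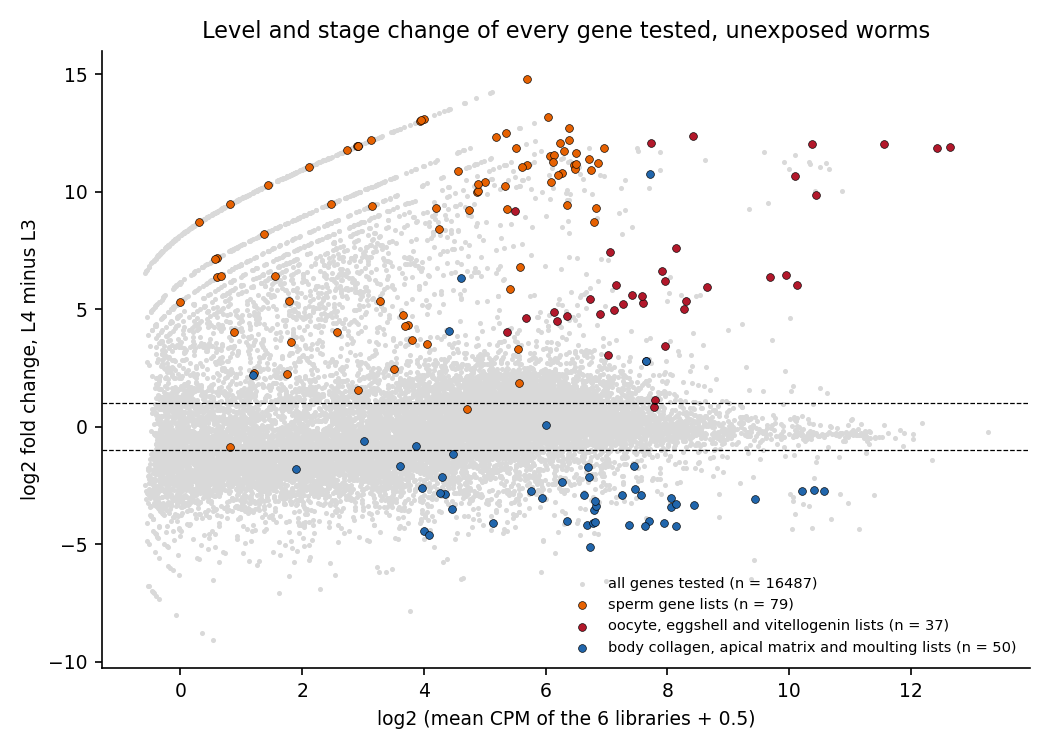
Log2 fold change (L4 minus L3, vertical) against mean level (log2 of mean CPM plus 0.5, horizontal) of the 16487 genes tested in unexposed worms, 1 point per gene, with dashed lines at a fold of 2. Sperm genes (orange) and oocyte, eggshell and yolk genes (red) lie mostly far above the upper line and most body collagen, apical matrix and moulting genes (blue) below the lower one, and the curved rows at the top left are genes with 0 or few counts at L3.

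Major sperm protein genes went from near absence to high levels. The products of the major sperm protein genes form the crawling cytoskeleton of the amoeboid nematode sperm and also signal to oocytes. Of 35 such genes in the files 31 passed the filter on low counts, 29 annotated by RefSeq as protein-coding and 2 as pseudogenes, and all 31 were up-regulated. Of these, 28 had fewer than 10 counts in each L3 library and so passed through L4 alone, where they had to be higher. Summed over the family, their level was 2.71, 2.77 and 2.85 CPM at L3 and 4079, 3971 and 4077 CPM at L4, and the median log2 fold change was 11.13 against −0.07 for all genes. *msp-40*, the most abundant member, lay at 0.0405, 0.0565 and 0.0855 CPM at L3 and 268, 235 and 238 CPM at L4 (log2 fold change 11.86, SE 0.18, edgeR adjusted p = 7.49e-09). *msp-36* was at 0.0405, 0.0565 and 0.171 CPM at L3 and 229.8, 231 and 233 CPM at L4. *msp-33* was at 0.122, 0.565 and 0.314 CPM at L3 and 244, 209 and 224 CPM at L4. The stages did not overlap for any of these, as for 83.9% of all genes tested. *msp-65* (WBcel235 chromosome IV, 5316487 to 5316944, plus strand) had 0 counts in the 3 L3 libraries and 95.1, 97.8 and 113 CPM at L4, at least 3213-fold higher when L3 is set to a floor of 3 counts over the group. These genes are near-identical copies, and how reads shared by several of them were counted is not given in the sources used here, so single members are less certain than the sum.

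Other sperm lists followed the same direction. Of the *spe*, *fer* and *ssp* genes, named for defects in sperm or for sperm-specific products, 34 of 36 tested were up-regulated and 0 down-regulated (1 down-regulated without L3 replicate 3 or L4 replicate 1). Summed, they were at 67.6, 68.8 and 67.1 CPM at L3 and 776, 739 and 734 CPM at L4. In this list 20 of the tested genes had fewer than 10 counts in each L3 library and passed the filter through L4 alone, where they had to be higher. The 3 most abundant were *spe-39*, which serves vesicle traffic and is also used in other tissues, the myosin gene *spe-15*, and *ssp-10*. *spe-39* rose from 20.3 ± 0.776 CPM to 73.1 ± 8.51 CPM (SD, n = 3). *ssp-10* was at 0, 0.141 and 0.0285 CPM at L3 and 81.7, 76.4 and 81.9 CPM at L4. All 12 tested *nspd* and *spch* genes were up-regulated, with a median of 10.35. The median was 9.92 with genes of 0 counts at L3 set to a bound and those of 1 to 3 counts to their ratio. Of these 12, 10 had fewer than 10 counts in each L3 library and passed the filter through L4 alone, where they had to be higher. *spch-1*, which encodes a small basic protein of sperm chromatin, was at 0.122, 0.0282 and 0.0285 CPM at L3 and 136, 130.5 and 147 CPM at L4 (log2 fold change 11.26, SE 0.23, edgeR adjusted p = 1.67e-08). The sperm phosphatase gene *gsp-3* had 2 counts in all L3 libraries together and 99.0, 97.4 and 108 CPM at L4, a ratio of 4813-fold (95% exact counting interval 1332 to 39745). Its near-copy *gsp-4* was at 0.081, 0.0847 and 0.057 CPM at L3 and 90.7, 85.4 and 95.7 CPM at L4, with the same limit on shared reads. *sss-1*, a sperm gene, reached 189, 136 and 142 CPM at L4 from at most 0.122 CPM. *peel-1*, the sperm-delivered toxin of a selfish element, was low but separated, with 0, 0.0282 and 0.0285 CPM at L3 and 5.48, 5.08 and 4.84 CPM at L4. In the list of sperm phosphatase, kinase and toxin genes 7 of 8 were up-regulated. Members that passed the filter on low counts through L4 alone, where they had to be higher, included *gsp-3*, *gsp-4*, *sss-1*, *peel-1* and *comp-1*.

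The genes that set germ cell sex and the sperm-to-oocyte switch did not all move the same way. Of 22 tested, 13 were up-regulated and 2 down-regulated (1 down-regulated with the size factors of DESeq2). *fog-3*, which directs germ cells to the sperm fate, fell from 12.3, 13.2 and 14.1 CPM at L3 to 1.83, 2.38 and 1.297 CPM at L4 (log2 fold change −2.84, SE 0.23, edgeR adjusted p = 9.58e-06). *fog-1*, its partner in the sperm decision, was at 23.4, 27.9 and 26.9 CPM at L3 and 20, 25.3 and 20.6 CPM at L4, and the stages overlapped (log2 fold change −0.25, SE 0.13, edgeR adjusted p = 0.109). Translational regulators of the switch rose. *gld-1*, an RNA-binding repressor of the meiotic germline, was at 49.7, 55.7 and 63.2 CPM at L3 and 865, 1099.8 and 933 CPM at L4 (log2 fold change 4.10, SE 0.15, edgeR adjusted p = 1.42e-07). *fog-2*, which works with *gld-1* to allow sperm in hermaphrodites, was at 3.89, 4.97 and 5.64 CPM at L3 and 28.8, 33.8 and 28.3 CPM at L4 (log2 fold change 2.64, SE 0.17, edgeR adjusted p = 2.43e-06). *fem-3*, which promotes sperm and is silenced for the switch to oocytes, rose as well, with 5.91, 5.48 and 7.41 CPM at L3 and 49.8, 59.1 and 50.3 CPM at L4 (log2 fold change 3.08, SE 0.15, edgeR adjusted p = 6.24e-07). *daz-1*, an RNA-binding protein gene of oogenesis, had a log2 fold change of 2.82. *tra-2*, which promotes female fate, passed the threshold narrowly (log2 fold change 1.04, SE 0.12, edgeR adjusted p = 7.9e-05) and was not called without L4 replicate 2 (log2 fold change 0.91).

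Meiosis genes rose together, with smaller median changes than the lists of sperm products. All 18 synaptonemal complex and chromosome axis genes, which pair homologous chromosomes and hold them together, were up-regulated, with a median of 2.33. *syp-4*, a central element of the synaptonemal complex, was at 20.7, 22.6 and 23.5 CPM at L3 and 136, 162 and 139.9 CPM at L4. *him-3*, of the chromosome axis, was at 16.6, 16.8 and 17.3 CPM at L3 and 110.1, 114 and 110.65 CPM at L4 (log2 fold change 2.72, SE 0.08, edgeR adjusted p = 5.06e-08). *rec-8*, the meiotic cohesin, had a log2 fold change of 2.18, and *lab-1*, which protects cohesion between sister chromatids, rose most in the list, with 1.86, 1.75 and 2.31 CPM at L3 and 47.6, 44 and 43.9 CPM at L4. Of 18 recombination genes 17 were up-regulated. They include *spo-11*, which cuts the DNA to start recombination (log2 fold change 2.62, SE 0.13, edgeR adjusted p = 6.53e-07), its cofactor *dsb-1* (log2 fold change 2.88), the crossover factor *cosa-1* (log2 fold change 2.32) and the strand exchange gene *rad-51* (log2 fold change 1.36). *him-5*, which promotes breaks on the X chromosome, stayed below the fold threshold at 0.84. Germ granules are the RNA-rich bodies around germ cell nuclei, and 15 of 16 of their genes tested were up-regulated. *pgl-3*, a core constituent, was at 25, 24.7 and 25.8 CPM at L3 and 209.6, 217 and 213 CPM at L4 (log2 fold change 3.08, SE 0.08, edgeR adjusted p = 3.15e-08). *cgh-1*, a helicase that guards stored messages, was at 113, 123 and 128 CPM at L3 and 1431, 1759 and 1527 CPM at L4. Its partner *car-1* (log2 fold change 2.55), the core gene *pgl-1* (log2 fold change 2.21) and the Argonaute *wago-1* (log2 fold change 3.04) moved with them. *glh-1* had a log2 fold change of 0.96 and was not called, and *drh-3*, a helicase of small RNA synthesis, was called at 1.00 but lost the call without L3 replicate 1, L3 replicate 2 or L4 replicate 2 (values of 0.94 to 0.98).

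Oocyte, eggshell and yolk genes rose, with higher median changes than the meiosis lists. Among oocyte and maternal RNA-binding protein genes 15 of 16 were up-regulated, with a median of 5.28. *oma-2*, which with *oma-1* drives oocyte maturation, was at 7.66, 7.4 and 8.9 CPM at L3 and 330.2, 426 and 371 CPM at L4 (log2 fold change 5.55, SE 0.14, edgeR adjusted p = 3.61e-08). *puf-5*, a repressor of messages in growing oocytes, was at 2.67, 2.99 and 2.85 CPM at L3 and 498, 647 and 537 CPM at L4. *rme-2*, the receptor by which oocytes take up yolk, was at 10.8, 13.6 and 14.2 CPM at L3 and 707, 914 and 766 CPM at L4 (log2 fold change 5.95, SE 0.17, edgeR adjusted p = 5e-08). In each of these genes every L4 library lay above every L3 library, while 83.9% of all genes tested had non-overlapping stages in either direction. *oma-1* (log2 fold change 4.81), the polarity gene *mex-5* (log2 fold change 5.34), the maternal gene *pos-1* (log2 fold change 6.21) and *nos-2*, a Nanos gene of the germline with 0.243, 0.0847 and 0.143 CPM at L3 and 79.9, 107 and 80.5 CPM at L4, rose too. Of these, *nos-2* passed the filter on low counts through L4 alone, where it had to be higher. *lin-41*, which delays oocyte maturation and also acts in larval timing, was the exception, with 153, 174 and 139 CPM at L3 and 217, 348 and 279 CPM at L4 and a fold change under the threshold (log2 fold change 0.86, SE 0.17, edgeR adjusted p = 0.00186).

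All 15 eggshell and fertilization genes were up-regulated, with a median of 5.45. Summed, they were at 301, 308 and 305 CPM at L3 and 8153, 10791 and 9319.7 CPM at L4. *cbd-1*, a chitin-binding protein of the outer eggshell, was at 29.1, 35.4 and 35.8 CPM at L3 and 1903, 2554 and 2206 CPM at L4 (log2 fold change 6.05, SE 0.17, edgeR adjusted p = 5.14e-08). *perm-4* and *perm-2*, which make the vitelline layer, were near 0 at L3. *perm-4* was at 0.162, 0.169 and 0.057 CPM at L3 and 561, 747 and 739 CPM at L4 (log2 fold change 12.36, SE 0.27, edgeR adjusted p = 1.99e-08). It passed the filter on low counts through L4 alone, where it had to be higher. The chondroitin proteoglycan genes *cpg-1* (log2 fold change 6.38) and *cpg-2* (log2 fold change 6.46) and the oocyte surface gene *egg-1* (log2 fold change 6.62), needed for fertilization, rose as well. The kinase gene *mbk-2*, which acts at the oocyte-to-embryo transition, rose least, from 138 ± 25.119 CPM to 305 ± 42.4 CPM, and was not called without L3 replicate 3 (log2 fold change 1.00).

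Vitellogenin genes, which encode the yolk proteins, showed some of the highest levels of the L4 libraries. All 6 were up-regulated, and summed they were at 14.4, 11.9 and 12 CPM at L3 and 25135, 50921 and 36609.7 CPM at L4. *vit-2* (WBcel235 chromosome X, 5101032 to 5106173, plus strand) was at 3.73, 2.32 and 2.99 CPM at L3 and 7532, 14508 and 11078 CPM at L4 (log2 fold change 11.85, SE 0.39, edgeR adjusted p = 1.02e-07). *vit-6* was at 4.05, 3.16 and 2.91 CPM at L3 and 8593, 17349 and 12666 CPM at L4 (log2 fold change 11.90, SE 0.39, edgeR adjusted p = 9.92e-08). Yolk gene levels were highest in L4 replicate 2 and lowest in replicate 1, and every L4 library lay far above every L3 library. *vit-3*, *vit-4* and *vit-5* are near-copies of one another and their split is uncertain.

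Yolk genes and the cuticle collagen *col-19* are known from adults, and both were abundant in the libraries labelled L4. *col-19* was at 1.01, 0.593 and 0.77 CPM at L3 and 1687, 2152 and 1963 CPM at L4 (log2 fold change 11.28, SE 0.23, edgeR adjusted p = 1.65e-08). In the list of adult epidermis markers 5 of 6 were up-regulated, and the sixth, the larval and adult collagen *rol-6*, was down-regulated. The libraries labelled L4 are therefore called by that label and their time of 47 h here, and what share of the worms on the plates was near the last moult is not given in the sources used here. Of 14 early embryonic specification genes only 2 passed the filter on low counts. These were *pal-1*, stored as a maternal message (log2 fold change 2.88, SE 0.11, edgeR adjusted p = 1.75e-07), and *pha-4*, which also acts in the larval pharynx and was down-regulated (log2 fold change −1.25, SE 0.13, edgeR adjusted p = 3.59e-05).

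**Figure D2:**
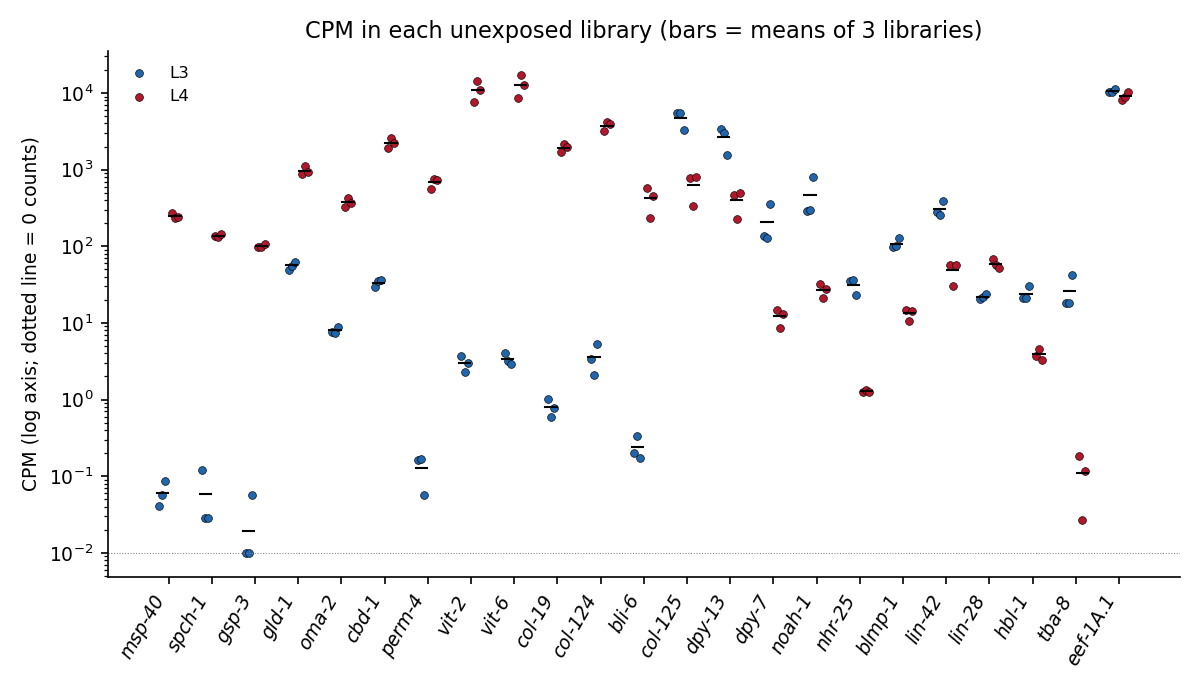
CPM (log axis) of 23 genes in each of the 6 unexposed libraries, L3 in blue and L4 in red, 1 point per library with short bars at the means of 3 libraries, and points on the dotted line for 0 counts. Sperm, oocyte, eggshell, yolk and adult collagen genes are low at L3 and high at L4, larval cuticle and timing genes except *lin-28* lie the other way round, and only the translation factor gene *eef-1A.1* overlaps between the stages.

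Genes of DNA replication and cell division rose together with the germline lists. Of 27 replication genes 26 were up-regulated, with a median of 1.85. *mcm-7*, a subunit of the replicative helicase, was at 54.6, 55.1 and 58.6 CPM at L3 and 277, 365 and 329.9 CPM at L4 (log2 fold change 2.53, SE 0.12, edgeR adjusted p = 5.19e-07). *dut-1*, which keeps uracil out of DNA, rose to 219 ± 15.5 CPM from 30.4 ± 0.939 CPM, and *pcn-1*, the sliding clamp, had a log2 fold change of 1.91. *rpa-2*, a single-strand binding subunit, had 0.73 and was not called. Of 36 mitotic genes 31 were up-regulated and 2 down-regulated. *cyb-3*, a cyclin of chromosome segregation, was at 38.8, 42.3 and 45.8 CPM at L3 and 408, 538 and 454 CPM at L4. *cyb-1* and *cyb-2.2*, other B-type cyclins, had log2 fold changes of 3.67 and 5.06, and *hcp-1*, of the kinetochore, 2.89. The G1 cyclin gene went the other way: *cyd-1*, known from divisions of larval somatic cells, fell from 21.2 ± 5.24 CPM to 5.95 ± 1 CPM (log2 fold change −1.84, SE 0.21, edgeR adjusted p = 7.32e-05). Of 30 histone genes tested 7 were up-regulated and 11 down-regulated, with a median of −0.32. Without L3 replicate 1 these counts were 13 and 9 and the median was 0.61, so the balance of the list turned on that library. The replication-dependent histone messages lack a poly-A tail in animals, so these poly-A libraries see them poorly. The linker histone gene *his-24* fell to 10.8 ± 0.946 CPM from 82.7 ± 3.93 CPM. *his-37*, a histone H4 gene, had a log2 fold change of −1.60. *his-70*, a histone H3 variant gene, had 3 counts at L3 in all and 11.4, 10.8 and 9.32 CPM at L4, a ratio of 336-fold (95% exact counting interval 115 to 1634).

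The cuticle collagens changed in both directions. Of 129 *col* genes tested 48 were up-regulated and 51 down-regulated, with a median of −0.27, and the summed level of the family was 46068, 45543 and 30773 CPM at L3 and 53465, 55820.2 and 59393 CPM at L4. The member with the highest mean level over the 6 libraries was *col-125*, at 5519.7, 5411 and 3294 CPM at L3 and 776, 336 and 798 CPM at L4 (log2 fold change −2.90, SE 0.36, edgeR adjusted p = 1.21e-04). The next was *col-124*, at 3.36, 2.06 and 5.25 CPM at L3 and 3199, 4199 and 3882 CPM at L4 (log2 fold change 10.04, SE 0.40, edgeR adjusted p = 2.34e-07). *col-166* fell from 3108 ± 281 CPM to 204 ± 55.1 CPM. *col-135* had 0 counts at L3 and 31.003, 45.7 and 48.7 CPM at L4, at least 1300.4-fold higher. Among down-regulated members *col-54* moved furthest, with 316, 306 and 130.1 CPM at L3 and 3.33, 1.83 and 2.83 CPM at L4 (log2 fold change −6.55, SE 0.43, edgeR adjusted p = 2.91e-06). *col-41* (log2 fold change −6.48) and *col-90* (log2 fold change −5.66) were close behind. *col-7*, another collagen known from adults, was at 0.243, 0.282 and 0.0855 CPM at L3 and 229, 93.5 and 164 CPM at L4.

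Among the collagens known by their body-shape and blister mutants, 16 of 19 were down-regulated and 3 up-regulated. The 3 were the blister genes, including *bli-1* and *bli-6*. *bli-1* forms the struts that join the layers of the adult cuticle and was at 0.486, 0.734 and 0.513 CPM at L3 and 55.2, 30.997 and 55.8 CPM at L4 (log2 fold change 6.33, SE 0.32, edgeR adjusted p = 7.46e-07). *bli-6* was at 0.203, 0.339 and 0.171 CPM at L3 and 578, 232 and 455 CPM at L4. Against these, *rol-6*, whose mutants roll, was at 590.5, 522 and 344 CPM at L3 and 60.3, 28.4 and 46.4 CPM at L4 (log2 fold change −3.43, SE 0.31, edgeR adjusted p = 1.95e-05). The down-regulated members included 6 that form the annular furrows (*dpy-2*, *dpy-3*, *dpy-7*, *dpy-8*, *dpy-9* and *dpy-10*), which summed to 767, 716 and 2047 CPM at L3 and 98.9, 60.8 and 87.3 CPM at L4. *dpy-7* was at 134, 127 and 359 CPM at L3 and 14.9, 8.47 and 13.2 CPM at L4 (log2 fold change −4.08, SE 0.46, edgeR adjusted p = 6.77e-05), and *dpy-10* at 134, 121 and 359 CPM at L3 and 18.9, 16.147 and 17.4 CPM at L4. A further 8 larval body collagens, *dpy-13* and *dpy-5* the highest among those named, summed to 12855, 11386 and 7001 CPM at L3 and 1755, 826 and 1755 CPM at L4. *dpy-13* was at 3418, 2962 and 1555 CPM at L3 and 472, 228 and 502 CPM at L4 (log2 fold change −2.72, SE 0.38, edgeR adjusted p = 2.29e-04). L3 replicate 3 held more furrow collagen and less of the other body collagens than the other L3 libraries, and L4 stayed below each L3 library in both groups. Each of these 14 genes was down-regulated in all 6 fits that left out a library.

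The layers around the collagens fell with the larval ones. Of 16 apical matrix genes, which coat the epidermis before and during a moult, 13 were down-regulated and 2 up-regulated, with a median of −3.75. *noah-1*, a zona pellucida domain protein of the sheath that forms before the cuticle, was at 289, 298 and 811 CPM at L3 and 32.2, 21 and 27.9 CPM at L4 (log2 fold change −4.11, SE 0.44, edgeR adjusted p = 5.25e-05). *fbn-1*, a fibrillin-like protein, was at 115, 143.79 and 356 CPM at L3 and 6.54, 5.08 and 6.34 CPM at L4. *sym-1*, a leucine-rich repeat protein, and the protease inhibitor gene *mlt-11* had log2 fold changes of −4.24 and −4.24. All 4 were higher in L3 replicate 3 than in the other L3 libraries, and lower in every L4 library than in any L3 library. Cuticlins, the insoluble proteins of the cortical cuticle, were down-regulated in 24 of 30 and up-regulated in 1. *cut-2* was at 2458, 2421 and 1173 CPM at L3 and 115, 55.2 and 129 CPM at L4 (log2 fold change −4.34, SE 0.42, edgeR adjusted p = 2.64e-05), and the 1 that rose was *cutl-18*, at 1.94, 1.69 and 1.74 CPM at L3 and 7.85, 3.6 and 6.4 CPM at L4. *dpy-1*, whose mutants are short, fell from 119.37 ± 43.6 CPM to 1.67 ± 0.391 CPM. Of 67 *abu* and *pqn* genes, many of them linked to the pharyngeal cuticle, 10 were up- and 18 down-regulated. These shares (14.9% and 26.9%) stood beside 28.5% and 27.9% for all genes tested.

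Astacin metalloproteases (*nas* genes), of which some digest the old cuticle or trim procollagens, were down-regulated in 20 of 30 and up-regulated in 3 (5 without L4 replicate 2). The abundant *nas-30* and *nas-36* had log2 fold changes of −2.55 and −2.87, whereas *nas-11* overlapped between stages (log2 fold change −0.51, SE 0.17, edgeR adjusted p = 0.0246). *nas-3* fell furthest (−5.33), and *nas-20* rose from at most 0.0565 CPM to 35.1, 33.2 and 36.6 CPM. Of 13 collagen processing and cross-linking genes 5 were down-regulated (8 with library totals) and 0 up-regulated. These included the peroxidase gene *mlt-7* (log2 fold change −1.64), the protease inhibitor gene *bli-5* (log2 fold change −2.61) and the procollagen protease gene *dpy-31* (log2 fold change −1.81). Hedgehog-related genes, which nematodes use largely in the epidermis, were down-regulated in 32 of 43. *grl-16* was at 1413, 1331 and 586 CPM at L3 and 312, 136 and 307 CPM at L4 (log2 fold change −2.14, SE 0.41, edgeR adjusted p = 0.00143), and the 1 that rose (2 without L4 replicate 1) was *grl-27*, at 0.851, 0.734 and 0.399 CPM at L3 and 10.7, 3.63 and 9.23 CPM at L4. Patched-related genes were down-regulated in 19 of 25, among them *ptr-10* (log2 fold change −4.39) and *ptc-3* (log2 fold change −1.66). *ptc-1*, which is needed in the germline, was 1 of 2 that rose, with 132, 123.97 and 126 CPM at L3 and 412, 571 and 464 CPM at L4 (log2 fold change 1.92, SE 0.13, edgeR adjusted p = 3.48e-06).

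Regulators of the moult were mostly lower at L4. Each stage was sampled at a single time, 27 h or 47 h. Stage and position within the moult cycle therefore cannot be told apart, here or for the cuticle and matrix genes above. Of 15 such genes 13 were down-regulated and 0 up-regulated, with a median of −2.60. *nhr-25*, a nuclear receptor of epidermal development and moulting, was at 35, 36.4 and 23.4 CPM at L3 and 1.27, 1.32 and 1.27 CPM at L4 (log2 fold change −4.61, SE 0.21, edgeR adjusted p = 4.93e-07). *blmp-1*, a transcription factor that keeps the timing of cyclic epidermal genes, was at 97.9, 99.9 and 128 CPM at L3 and 14.9, 10.7 and 14.5 CPM at L4 (log2 fold change −3.02, SE 0.17, edgeR adjusted p = 1.25e-06). *myrf-1*, which drives larval development, was at 165, 171 and 265 CPM at L3 and 23.1, 19.7 and 24.2 CPM at L4. *lin-42*, a relative of the Period clock genes whose level cycles with the moults, was at 278, 255 and 386 CPM at L3 and 57.5, 30.4 and 57.3 CPM at L4 (log2 fold change −2.66, SE 0.27, edgeR adjusted p = 3.74e-05). *acn-1* (log2 fold change −2.89) and *bed-3* (log2 fold change −2.88) fell too. For none of these 6 did the stages overlap, as for 83.9% of all genes tested.

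The heterochronic genes split by gene. Of 19 tested 9 were down-regulated and 3 up-regulated, and the 5 microRNA genes of the list did not pass the filter in these poly-A libraries. *hbl-1*, which acts in early larval stages, was at 20.9, 21.2 and 30.1 CPM at L3 and 3.73, 4.61 and 3.3 CPM at L4 (log2 fold change −2.63, SE 0.20, edgeR adjusted p = 7.96e-06). *lin-46*, which limits its activity, fell to 1.62 ± 0.459 CPM from 27.9 ± 4.9 CPM. *lin-14* (log2 fold change −1.21) and the receptor gene *daf-12*, at 115, 126 and 107 CPM at L3 and 20.6, 22.2 and 21.3 CPM at L4, were lower as well. *lin-28*, an RNA-binding regulator of early larval fates, was higher at L4, with 20.5, 21.7 and 23.9 CPM at L3 and 69, 56.6 and 51.3 CPM at L4 (log2 fold change 1.42, SE 0.13, edgeR adjusted p = 2.04e-05). *lin-29*, which directs the larval-to-adult switch of the epidermis, was lower at the level of RNA (log2 fold change −1.35, SE 0.25, edgeR adjusted p = 0.00127).

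In the list of vulval induction and patterning genes 14 of 26 were down-regulated (53.8%) and 6 up-regulated (23.1%), beside 27.9% and 28.5% of all genes tested. *lin-3*, the epidermal growth factor that the anchor cell sends to vulval precursors, was at 11.5, 9.74 and 7.7 CPM at L3 and 39.3, 49.4 and 39.4 CPM at L4 (log2 fold change 2.15, SE 0.17, edgeR adjusted p = 9.5e-06). *apx-1*, a Delta-type ligand also used as a maternal message, was at 9.8, 10.3 and 10.2 CPM at L3 and 128, 156 and 144.14 CPM at L4 (log2 fold change 3.82, SE 0.11, edgeR adjusted p = 4.41e-08). *lin-12*, the Notch receptor of the vulval and anchor cell decisions, was at 26.1, 26 and 26 CPM at L3 and 6.61, 6.27 and 6.19 CPM at L4 (log2 fold change −2.03, SE 0.11, edgeR adjusted p = 1.01e-06), while the ligand gene *lag-2* (log2 fold change −2.39), the Hox gene *lin-39* (log2 fold change −1.87) and the fibroblast growth factor gene *egl-17* (log2 fold change −2.31) fell. *lip-1*, a phosphatase of the Ras pathway, rose (1.55). All 9 chondroitin synthesis genes, which the vulval lumen and the early embryo need, were up-regulated, with a median of 1.38, among them *sqv-5* (log2 fold change 2.14) and *sqv-4* (log2 fold change 1.38). Of 8 sheath and spermatheca markers 4 were up- (50%) and 2 down-regulated (25%), the latter near the 27.9% of all genes tested. With the size factors of DESeq2 these counts were 4 and 0. The count of down-regulated markers was 1 without L3 replicate 2 or L4 replicate 2. The innexin gene *inx-8*, a gap junction protein of the gonadal sheath, was at 0.608, 1.02 and 0.912 CPM at L3 and 40.8, 59.2 and 45.5 CPM at L4 (log2 fold change 5.81, SE 0.23, edgeR adjusted p = 2.45e-07). *inx-9* and the gonadal regulator gene *fkh-6* had log2 fold changes of 2.08 and 2.60. *ceh-18*, a homeobox gene of the sheath, had −1.13 (−0.99 with the size factors of DESeq2).

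Housekeeping lists had few calls. Of 79 cytosolic ribosomal protein genes 2 were up- and 2 down-regulated, and their median was −0.33 (−0.19 with the size factors of DESeq2 and −0.46 with library totals). *rpl-3* had a log2 fold change of −0.51, *rpl-25.1* fell by more (−1.30), and *rpl-42* rose from at most 0.254 CPM to 4.84, 2.99 and 4.07 CPM. *rla-1*, the reference gene of the study's qPCR, was at 1901, 1660.2 and 1673 CPM at L3 and 1420.1, 1319 and 1533 CPM at L4 (log2 fold change −0.29, SE 0.11, edgeR adjusted p = 0.0343). *eef-1A.1*, translation elongation factor 1 alpha, had the highest counts per kilobase of both stages and was at 10174, 10418 and 11157 CPM at L3 and 8029.9, 8976 and 10271 CPM at L4 (log2 fold change −0.22, SE 0.13, edgeR adjusted p = 0.16). Of 33 proteasome genes 2 were up-regulated (1 without L3 replicate 1 or L4 replicate 2), among them *rpn-6.2*, at 5.55, 7.09 and 6.64 CPM at L3 and 39, 37 and 34.1 CPM at L4. Of 35 respiratory chain genes 4 were up-regulated, and 1 of them, the cytochrome c gene *cyc-2.2*, had 2 counts at L3 and 56.96, 50.1 and 49.7 CPM at L4, a ratio of 2503-fold (95% exact counting interval 693 to 20672). Body wall muscle and intestine markers were each down-regulated in 1 gene (of 14 and 12, and in 2 intestine markers without L4 replicate 2), *hlh-1* in muscle (log2 fold change −1.61, SE 0.24, edgeR adjusted p = 3.88e-04). The muscle myosin gene *myo-3* was at 376, 383 and 318 CPM at L3 and 242, 283 and 326 CPM at L4, with overlapping stages, and the intestinal protease gene *asp-1* was at 4421, 4280.02 and 4582 CPM at L3 and 4295, 4768 and 5656 CPM at L4.

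**Figure D3:**
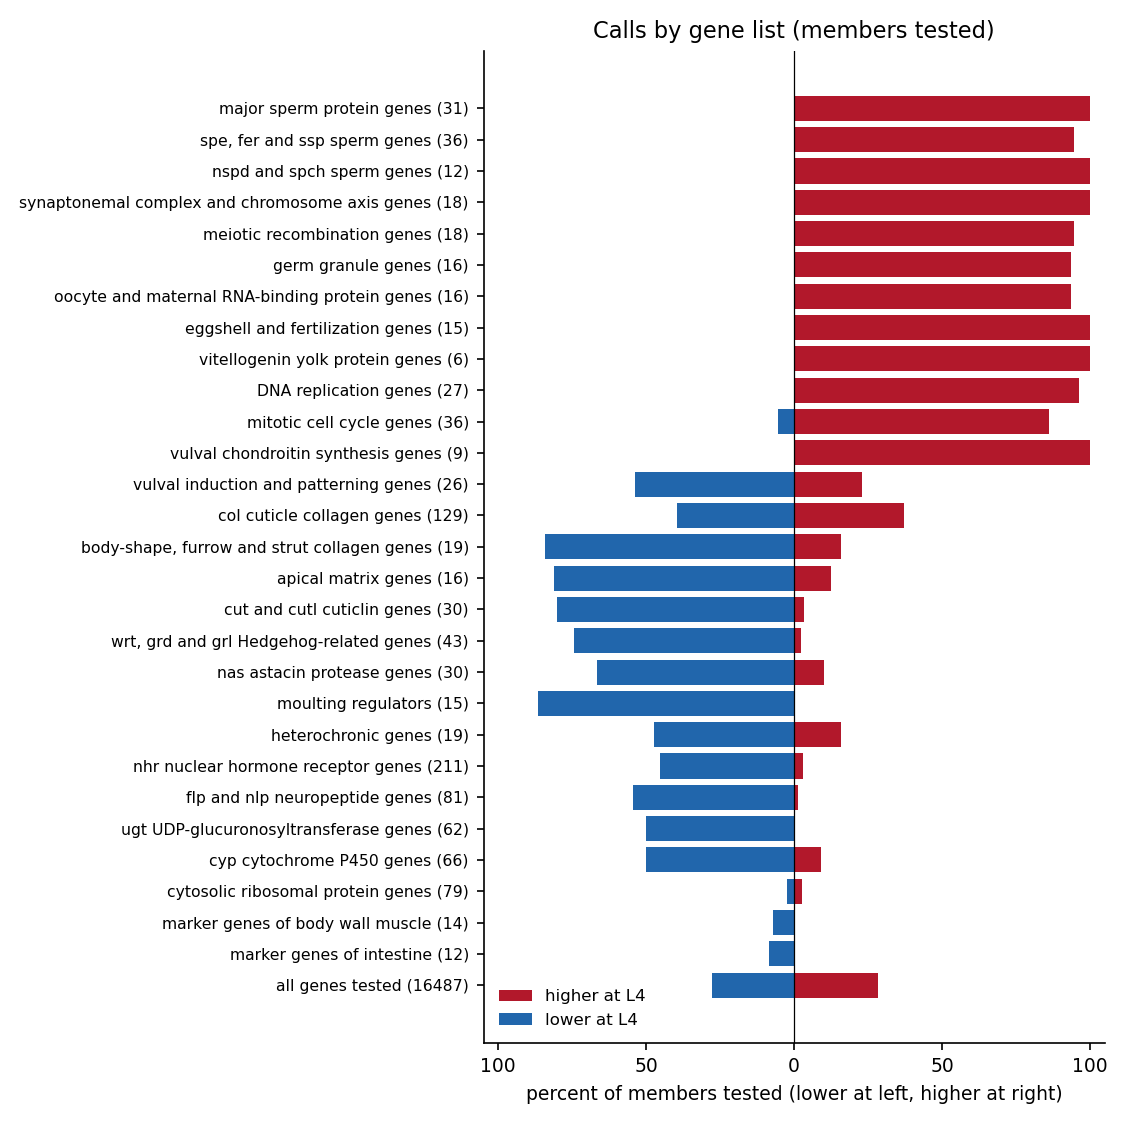
Percent of tested members called up-regulated (red, to the right) and down-regulated (blue, to the left) at L4 in 28 gene lists and in all genes tested, with the number tested in brackets. Sperm, meiosis, oocyte, eggshell, yolk and replication lists lie almost wholly to the right, the matrix, cuticlin and moulting lists mostly to the left, and ribosomal, muscle and intestine lists show few calls either way, against 28.5% and 27.9% for all genes.

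Among genes of neurons and signalling, calls were mostly downward. Of all genes tested 27.9% were down- and 28.5% up-regulated. The share down-regulated was 46.7% of neuronal markers, 54.3% of neuropeptide, 63.0% of insulin-like peptide and 45.5% of nuclear hormone receptor genes. Of 15 neuronal markers 7 were down-regulated and 0 up-regulated. *ric-4*, of synaptic vesicle release, was at 81.8, 87.9 and 121 CPM at L3 and 18, 17.9 and 18.6 CPM at L4. *rab-3*, which acts in the same process, was at 38.6, 34.4 and 30 CPM at L3 and 12.1, 8.26 and 10.3 CPM at L4. Neither gene overlapped between stages, as for 83.9% of all genes tested. *snb-1*, synaptobrevin, was not called (log2 fold change 0.30, SE 0.07, edgeR adjusted p = 0.00571). Neuropeptide genes (*flp* and *nlp*) were down-regulated in 44 of 81 and up-regulated in 1 (4 with the size factors of DESeq2, and 2 without L3 replicate 2 or 3 or L4 replicate 1 or 2). Their median of −1.09 lay near the threshold, and 39 were down-regulated with the size factors of DESeq2 and 55 with library totals. The most abundant, *nlp-24* and *nlp-33*, the latter known as an antimicrobial peptide gene of the epidermis, had log2 fold changes of −1.83 and −2.24. *nlp-17* fell furthest (log2 fold change −3.75, SE 0.19, edgeR adjusted p = 7.66e-07), and *nlp-4* rose, to 6.35 ± 0.418 CPM. Insulin-like peptide genes were down-regulated in 17 of 27. *ins-35* was at 64.9, 47.1 and 33.7 CPM at L3 and 0.724, 0.424 and 0.531 CPM at L4 (log2 fold change −6.41, SE 0.32, edgeR adjusted p = 7.82e-07). *ins-33*, the most abundant member, was at 30.7, 38.1 and 81.2 CPM at L3 and 3.21, 1.22 and 1.86 CPM at L4. Nuclear hormone receptor genes, a family greatly expanded in nematodes, were down-regulated in 96 of 211 and up-regulated in 6. Here too the median (−0.95) lay near the threshold, and 86 were down-regulated with the size factors of DESeq2 and 117 with library totals. *nhr-97* and *nhr-68*, of the 3 most abundant, had log2 fold changes of −1.33 and −1.83.

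Of 62 glucuronosyltransferase genes 31 were down- and 0 up-regulated (1 without L3 replicate 2 or L4 replicate 3), and *ugt-57* fell furthest, from 21.9 ± 6.06 CPM to 1.09 ± 0.147 CPM (log2 fold change −4.32, SE 0.25, edgeR adjusted p = 1.46e-06). *ugt-22*, the most abundant, had −0.95 and was not called. Cytochrome P450 genes were down-regulated in 33 of 66 (50%) and up-regulated in 6 (9.09%). With the size factors of DESeq2 27 were down-regulated. *cyp-13A2* was at 62.7, 57.9 and 102 CPM at L3 and 4.1, 2.04 and 3.66 CPM at L4, and *cyp-31A2*, known from eggshell formation, rose, with 4.01, 4.52 and 4.65 CPM at L3 and 77.8, 82.8 and 76.1 CPM at L4 (log2 fold change 4.16, SE 0.10, edgeR adjusted p = 3.16e-08). Of 140 C-type lectin genes 33 were up- (23.6%) and 39 down-regulated (27.9%), near the shares of all genes tested (28.5% and 27.9%). Of those tested, 13 had at most 3 counts over a stage. Among these, 5 had 0 counts at L3, passed the filter on low counts through L4 alone and had to be higher there. *clec-87*, known as a chondroitin proteoglycan gene, was at 13, 13.3 and 10.1 CPM at L3 and 514, 670.3 and 580.2 CPM at L4, and *clec-73* had 1 count at L3 and 60.04, 47.8 and 51.2 CPM at L4, a ratio of 5088-fold (95% exact counting interval 913 to 200990). Of the 13 metal and heat shock stress genes tested 4 were up- (30.8%) and 2 down-regulated (15.4%). *hsp-70*, an inducible chaperone, was at 5.06, 7.14 and 5.19 CPM at L3 and 91.5, 61.2 and 58.1 CPM at L4 (log2 fold change 3.59, SE 0.23, edgeR adjusted p = 2.49e-06). *hsp-16.2* and the arsenite-inducible gene *aip-1* rose by 1.68 and 1.49 on the log2 scale. The metallothionein genes fell. *mtl-2* was at 189.7, 174 and 133 CPM at L3 and 47.9, 82.2 and 27.6 CPM at L4 (log2 fold change −1.65, SE 0.35, edgeR adjusted p = 0.00254). *mtl-1* was at 4.78, 5.48 and 6.02 CPM at L3 and 2.33, 3.36 and 1.36 CPM at L4 (log2 fold change −1.20, SE 0.31, edgeR adjusted p = 0.00669), and was not called without L4 replicate 3 (log2 fold change −0.91).

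Among single genes chosen for non-overlapping stages and at least 10 CPM in the higher stage and then ranked by fold change, several carry only a sequence name. *Y57G11B.5*, *R04D3.3*, *ZK813.1* and *W04A4.2* had 0 counts at L3 and were at least 2167, 2114, 1793 and 1568 times higher at L4. Of the 64 genes of that kind 45 have only a sequence name and 9 belong to the sperm lists. Chromosome IV held 22 of them (2807 genes tested), I 13 (2631), V 12 (3386), III 7 (2472), II 6 (2827) and X 4 (2352). On the falling side *tba-8*, an alpha-tubulin gene on X, moved furthest, with 18.4, 18.2 and 41.8 CPM at L3 and 0.181, 0.0265 and 0.118 CPM at L4 (log2 fold change −7.83, SE 0.57, edgeR adjusted p = 5.34e-06). *lips-6*, a lipase-like gene, was at 69.1, 49.2 and 23.8 CPM at L3 and 0.815, 0.318 and 0.442 CPM at L4. *T13F2.4*, *F25D1.3*, *igdb-3*, *C05G5.7* and *F17B5.1* had log2 fold changes of −6.32, −6.19, −5.96, −5.75 and −5.38.

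The direction of change varied between chromosomes. On the autosomes 31.3% of the 14123 genes tested were up-regulated and 25.9% down-regulated, while on the X chromosome 11.99% of 2352 were up- and 39.9% down-regulated. Chromosome I had the highest share up-regulated, 36.9% of 2631, and chromosome V stood between, with 23.1% up and 35.9% down. Of the 12 mitochondrial genes tested 0 were up- and 3 down-regulated. These shares are descriptions, as neighbouring genes and gene families are not independent. The median exonic length was 1232 bases for up-regulated, 1158 for down-regulated and 1331 for uncalled genes.

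**Figure D4:**
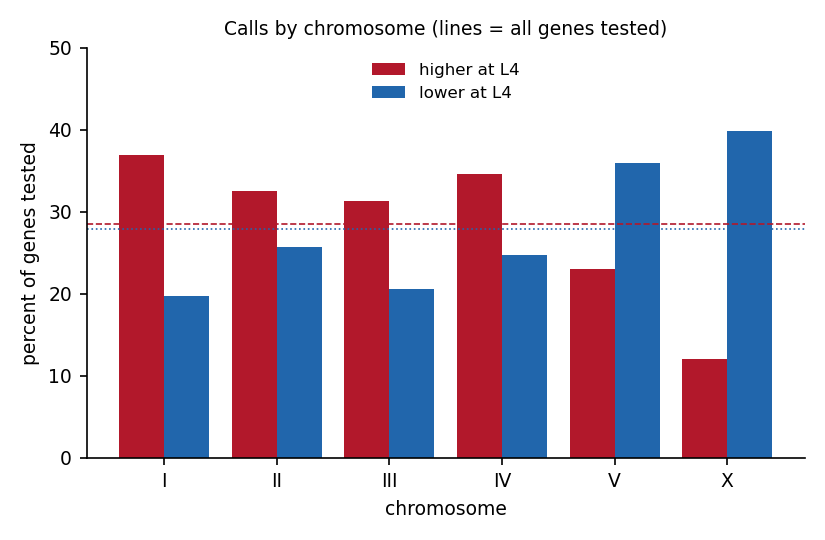
Percent of the genes tested on each chromosome that were called up-regulated (red) or down-regulated (blue) at L4, with lines at the shares for all genes (dashed red 28.5%, dotted blue 27.9%). Among the nuclear chromosomes X has the lowest share up-regulated (11.99%) and the highest share down-regulated (39.9%).

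The replicates of a stage also differed from one another. L3 replicate 3 was at least 2-fold away from both other L3 libraries in 527 genes (3.20% of those tested), and L4 replicate 2 from its fellows in 399 genes (2.42%), while the other 4 libraries stood apart in 28 to 112 genes. In L3 replicate 3 the furrow collagens and sheath genes such as *noah-1* were higher, and *dpy-13*, *cut-2* and *grl-16* lower. In L4 replicate 2 the yolk genes were the highest of the stage and *dpy-13*, *cut-2* and *bli-6* the lowest. What set these libraries apart was not tested.

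The stage change was set beside that of worms grown with 20 µM Cd, in libraries that share no sample with the unexposed ones. The titles, descriptions and treatment labels of these libraries give 20 µM Cd, while their source names carry a Cd level of 0, and the titles were followed here. With Cd, 4250 of 16650 genes tested were up-regulated (25.5%) and 3761 down-regulated at L4 (22.6%). Of the 16257 genes tested in both, 3777 were up-regulated in both, which is 81.1% of the unexposed and 91.4% of the exposed calls. Likewise 3046 were down-regulated in both, 67.8% of the unexposed and 84.4% of the exposed calls. For 95 genes the calls were opposite, all of them down-regulated without Cd and up-regulated with it. The difference of the stage changes was tested directly in all 12 libraries. Of 17196 genes the unexposed change was higher in 109 (0.634%) and lower in 963 (5.6%). The count of lower differences was 572 without unexposed L3 replicate 1. The count of higher differences was 318 without unexposed L3 replicate 3, 37 without L3 replicate 2, 63 without L3 replicate 1 and 41 without L4 replicate 2 of the unexposed worms, and 61 without L3 replicate 2 and 50 without L4 replicate 1 of the exposed worms.

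Calls of this difference were frequent in several cuticle lists and absent from the germline lists given here. The unexposed change was lower in 55 of 133 *col* genes, 22 of 47 Hedgehog-related genes, 12 of 25 Patched-related genes, 13 of 31 *nas* genes, 11 of 30 cuticlins and 21 of 69 *abu* and *pqn* genes, beside 5.6% of all genes tested. It was lower in 3 of 16 apical matrix genes, 3 of 13 collagen processing genes and 2 of 15 moulting regulators. In 5 of the 133 *col* genes the unexposed change was higher, beside 0.634% of all genes. In the lists of sperm, meiosis, germ granule, oocyte, eggshell and yolk genes it was called in 0 genes in either direction. Many sperm genes had fewer than 10 counts in each unexposed L3 library. These were 28 of 31 major sperm protein, 20 of 36 *spe*, *fer* and *ssp*, and 10 of 12 *nspd* and *spch* genes tested. A difference in their stage change is hard to detect, so 0 calls there do not show equal changes. *dpy-13* had log2 fold changes of −2.72 without and 0.45 with Cd, a difference of −3.26 (edgeR adjusted p = 0.00468). For *dpy-5* these were −2.73 and 0.49 (difference −3.30), and for *grl-16* −2.14 and 1.44 (difference −3.67). The stage change differed in all 8 of the larval body collagens summed above and in 0 of the 6 furrow collagens, of which *dpy-7* had log2 fold changes of −4.08 without and −4.32 with Cd. *nhr-25* (−4.61 and −3.44) and *bed-3* (−2.88 and −0.59) among the moulting regulators also fell further without Cd. In the other direction stood *mtl-1*, with log2 fold changes of −1.20 without and −3.66 with Cd (difference 2.39, edgeR adjusted p = 0.00369), and the ferritin gene *ftn-1* (−1.79 and −4.09). *F41F3.3*, among the 10 genes with the most counts per kilobase at L3, had log2 fold changes of −2.86 without and 0.47 with Cd. L3 replicate 3 and L4 replicate 2 were low in *dpy-13*, *cut-2* and *grl-16* within their stages. Without L3 replicate 3 the counts of lower and higher differences were 1237 and 318, and without L4 replicate 2 they were 751 and 41.

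**Figure D5:**
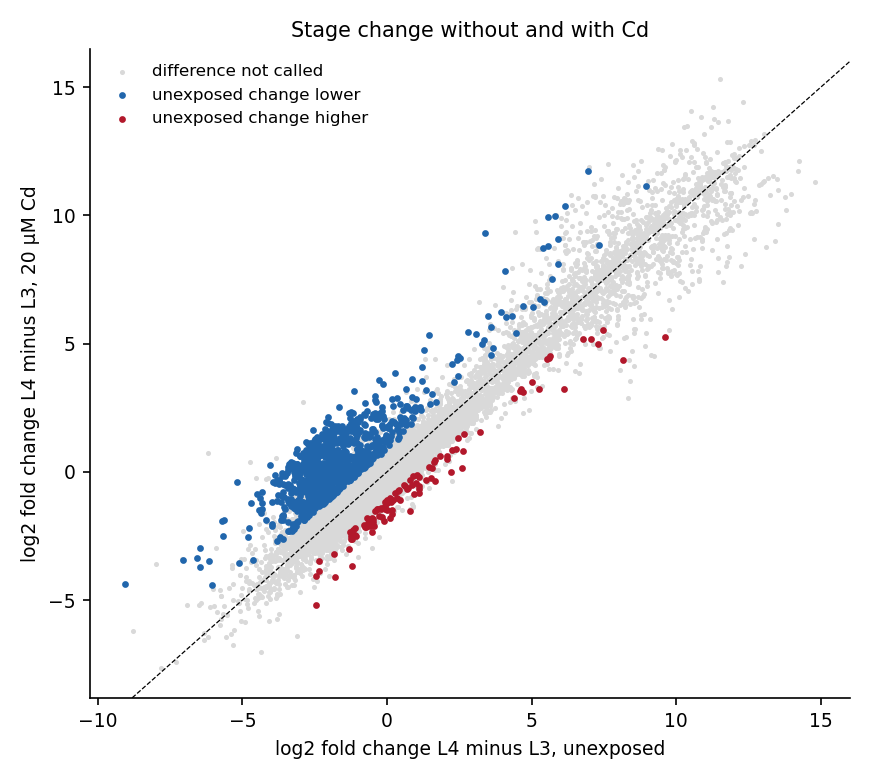
Log2 fold change L4 minus L3 in unexposed worms (horizontal) against worms grown with 20 µM Cd (vertical) for the 16257 genes tested in both, 1 point per gene, with the line of equal change dashed. Genes whose unexposed change was called lower (blue) lie mostly to the left of 0 and above the line, the red points are those whose unexposed change was called higher, and the genes that rose most lie near the line in grey.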

How the data were processed

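Whole-worm poly-A RNA was sequenced by the authors as paired-end Illumina reads. The submitters' processing notes and the methods name Trimmomatic 0.36, STAR 2.5.2b with the WBcel235 genome and featureCounts of Subread 1.5.2. The deposited values are raw gene counts of 46546 named genes, not normalized and not pooled by the authors. The annotation release, the use of strand and the treatment of multi-mapping reads are not given in the sources used here, so near-identical or overlapping genes are uncertain. Of 190 genes named with values, 57 overlap a gene on the opposite strand. The entry without a gene name (0.0148% to 2.01% of a library) was left out.

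Counts were analysed in R 4.3.3 with edgeR 4.0.16 (filterByExpr, TMM factors, glmQLFit and glmQLFTest, Benjamini-Hochberg adjustment), using the 6 unexposed libraries only. The difference between unexposed and exposed stage changes was an interaction term in a fit of all 12 libraries. DESeq2 1.42.0, other scalings, filters and thresholds, a replicate block and leaving out each library were tried as alternatives. SEs were derived from the F statistic. The tests were checked on simulated data with 200 genes changed, far fewer than were called here, so that check does not cover a change of this extent. Exact tests of 3 against 3 libraries cannot go below p = 0.1, so p-values come from the models. Replicate libraries of a stage differed by more than sampling noise. A fold against 0 counts was set against a floor of 3 counts over the group, and ratios on 1 to 3 counts carry a 95% exact interval, which covers counting error only.

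The members of the 54 gene lists were chosen by gene name, with earlier results of these data known, so lists are described by counts and medians without a test. Their counts are to be read beside the 28.5% up- and 27.9% down-regulated among all genes tested. A gene too low at L3 for the filter on low counts passed it through L4 alone. Such a gene had to be higher at L4, in any list and among single genes. Genes named are the 15 with the largest fold change in each direction with non-overlapping stages and a mean of at least 10 CPM, members of lists with up to 30 measured genes, in longer lists the 3 most abundant and the furthest called in each direction, the 10 with most counts per kilobase at each stage, the 5 with the largest interaction in each direction, and *rla-1*.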

Additional observations from a re-analysis of the deposited data

Results flagged for a closer look

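For the genes below the change from L3 to L4 differed between unexposed worms and worms grown with 20 µM Cd by a direct test of the difference (edgeR quasi-likelihood interaction, 12 libraries, adjusted over 17196 genes). Values are the unexposed minus the exposed log2 stage change. In cuticle collagens they were −1.80 for *col-125*, −3.27 for *col-54*, −2.86 for *col-41* and −3.23 for *col-90*. In body-shape collagens and related genes they were −2.39 for *rol-6*, −3.26 for *dpy-13*, −3.30 for *dpy-5* and −2.76 for *dpy-1*. In other genes of the cuticle and epidermis they were −3.22 for *cut-2*, −3.67 for *grl-16*, −1.10 for *ptc-3*, −2.95 for *nas-30*, −3.04 for *nas-36*, −1.48 for *mlt-7* and −2.74 for *bli-5*. Among regulators and signals they were −1.25 for *nhr-25*, −2.36 for *bed-3*, −1.40 for *egl-17* and −1.67 for *nlp-33*. For *lips-6* the difference was −3.59, and for *F41F3.3* it was −3.42.

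Stress genes were found on both sides. The difference was −1.06 for *hsp-70*, −1.12 for *hsp-16.2* and −1.22 for *aip-1*, which all rose less without Cd, and 2.39 for *mtl-1*. Among the genes with the largest positive differences, *F44E7.5* (2.36) rose from 8.02 ± 0.459 CPM to 47.9 ± 8.82 CPM without Cd, and the acid phosphatase gene *acp-6* (1.94) from 87.8 ± 47.2 CPM to 279 ± 77.8 CPM. For the ferritin gene *ftn-1* the difference was 2.24, and for *Y39B6A.10* it was 1.89. The largest negative differences were −4.78 for *Y69A2AR.14*, annotated as a pseudogene, −4.25 for *C27D9.2*, −4.22 for *M110.7*, −4.10 for *W08E12.2* and −4.07 for *E01G6.1*. *W08E12.2* was at 113, 96.7 and 38.5 CPM at L3 and 11.7, 0.794 and 16.245 CPM at L4 without Cd, with the 3 L4 libraries unequal. *C27D9.2* was at 11.9, 14.9 and 5.76 CPM at L3 and 3.35, 1.19 and 3.39 CPM at L4 without Cd and had a log2 fold change of 2.13 with it.

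The entry without a gene name, which no comparison uses, held 2.01% of the counts of L3 replicate 1 and between 0.0148% and 0.0737% in the other 5 unexposed libraries.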

How the results depend on the processing

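Against 4701 up- and 4604 down-regulated genes, the alternatives gave between 3982 and 6718 and between 3308 and 6693, all within 1.5 times, and 0 genes were called in opposite directions under any of them. DESeq2's Wald test called 5461 and 4347 genes. Calls that rose made up 50.5% with TMM, 55.2% with the size factors of DESeq2 and 46.1% with library totals. Leaving out 1 library gave 4674 to 4876 up- and 4511 to 4757 down-regulated genes.

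The count of higher differences between unexposed and exposed stage changes moved from 109 to 269 with DESeq2's Wald test and to 212 with its size factors, and ran from 37 to 318 as single libraries were left out. The count of lower differences ran from 572 to 1237. The cause was not tested.

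Deviations of libraries with the same replicate number correlated at 0.03, −0.08 and −0.12, and those with different numbers at −0.12 to 0.16. With 3 libraries per stage this cannot show whether libraries of the same number were prepared together. With the replicate number as a block the fit called 4679 and 4546 genes, 4668 and 4495 of them shared with the fit without it.

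Among the genes named, fold changes kept their direction under all alternatives. Over the single-gene results under each alternative, 34 values lost and 20 gained a call, and 2986 kept theirs. Of the list counts, 47 moved by over 1.5 times and 925 did not. Genes with 0 to 3 counts at L3 are limited by depth (totals from 23899991 counts), and their fitted fold depends on the prior count.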

Other observations

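Transthyretin-related genes, secreted proteins of unknown role, were up-regulated in 11 of 56 and down-regulated in 21. Of those tested, 6 had at most 3 counts over a stage. Among these, 4 had 0 counts at L3, passed the filter on low counts through L4 alone and had to be higher there. Their shares (19.6% and 37.5%) stood beside 28.5% and 27.9% for all genes tested. Small antimicrobial-type peptide genes (*cnc*, *fip* and *fipr*) were down-regulated in 15 of 26 and up-regulated in 2 (1 without L3 replicate 2 or L4 replicate 1), while of 41 glutathione S-transferase genes 13 were down- and 3 up-regulated (5 without L3 replicate 1). Lipase genes (*lipl* and *lips*) were down-regulated in 9 of 19 and lysozyme genes in 3 of 9. The share down-regulated was 31.7% of the glutathione S-transferase and 33.3% of the lysozyme genes, near the 27.9% of all genes tested. With the size factors of DESeq2 only 1 of the lysozyme genes was down-regulated, and 2 were without L3 replicate 1 or L4 replicate 3. *lys-4* (log2 fold change −1.12, SE 0.16, edgeR adjusted p = 2.69e-04) was among the calls lost with those size factors and without L4 replicate 3 (log2 fold change −0.92). Among 7 fat desaturase genes 1 was up-regulated, *fat-7*, at 1.2962, 1.27 and 1.97 CPM at L3 and 9.53, 16.6 and 12.6 CPM at L4 (log2 fold change 3.08, SE 0.28, edgeR adjusted p = 1.85e-05). Of 12 tubulin genes 5 were down-regulated and 0 up-regulated.

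Of 12 pharynx markers 6 were down-regulated, and of 11 markers of the hypodermis and seam likewise 6, with 0 up-regulated in either list (1 pharynx marker without L3 replicate 2 or L4 replicate 1 or 2). Coelomocytes are scavenger cells of the body cavity, and 3 of their 4 markers were down-regulated, *unc-122* among them (8.06, 7.54 and 6.59 CPM at L3 and 1.06, 0.979 and 1.03 CPM at L4), while 1 was up-regulated. Of 9 genes of the male tail and seminal fluid 6 passed the filter, 4 of them down-regulated and 0 up-regulated, and they summed to 29.9, 32.2 and 37.6 CPM at L3 and 19.6, 16.544 and 19.4 CPM at L4. Further sperm genes with few or 0 counts at L3 were *ssp-16*, at least 959.5-fold higher at L4, *spch-2*, at least 984-fold higher, *spch-3*, with a ratio of 12469-fold (95% exact counting interval 2238 to 492518) on 1 count, and *comp-1*, a gene of sperm competition, with a ratio of 447-fold (95% exact counting interval 153 to 2167).

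The results of *F31C3.14* and *R144.15* were set by a single library. *F31C3.14*, an RNA gene without a protein product, was at 12409.5, 365 and 195 CPM at L3 and 426, 98.3 and 110.2 CPM at L4, and its call (log2 fold change −4.35, SE 1.56, edgeR adjusted p = 0.0304) was lost without L3 replicate 1, where the log2 fold change was −0.41. *R144.15* was at 53, 0.508 and 0.371 CPM at L3 and 0.339, 0.159 and 0.206 CPM at L4, and without L3 replicate 1 its log2 fold change was −0.88 and not called. Its exons lie on the strand opposite to another gene, whose reads cannot be told apart if strand was not used in counting. What sets these genes apart in that library was not tested.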
